A study of Mus musculus with 11 samples.

Results

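The telomere-side ends of 15 mouse autosomes were examined, that is, the outermost 5 Mb of each chromosome on the side away from the centromere. An end was made of all deposited bins that start within 5 Mb of the end of the last deposited bin, on every autosome except 1, 6, 8 and 14. No depth value enters this rule. The rule gave 1482 bins, 96 to 100 in each end and 74.1 Mb in all, out of 47924 autosomal bins and 52958 bins in the whole data set, and the remaining 34735 bins of the same 15 autosomes served for comparison. The libraries came from low-coverage whole-genome sequencing of bulk mouse embryonic stem cells, done to look for gains and losses of chromosomal material after loss of the TET enzymes. Ctrl cells had the genotype Cre/ERT2; Rosa26-LSL-H2b-Egfp, in which tamoxifen activates the recombinase and switches on a green reporter. Tet iTKO cells had the same alleles plus Tet1,2,3 fl/fl, so that tamoxifen removes all the floxed Tet genes. Each of these genotypes had 1 library before treatment (pre-treatment, not activated), 1 acute library after 2.5 days of 1 µM tamoxifen and 4 further days, and 3 long-term libraries from monoclonal populations kept for 30 days in culture. Dnmt TKO cells, which lack Dnmt1, Dnmt3a and Dnmt3b from the germline and received no tamoxifen, gave 1 long-term library. All cells were grown in 2i medium on embryonic fibroblast feeders and sorted as live CD326+ Thy1.2- cells. For Ctrl and Tet iTKO a GFP+ gate is also described. It can hold only for the treated cells, since tamoxifen switches on the reporter. A clone, and not an animal, is the unit behind each long-term library. The mice behind the Ctrl and Tet iTKO lines were kept on a B6 background by the methods. The floxed Tet alleles were made in stem cells of the NTac substrain of B6, while Ctrl embryos came from matings with wild-type mice of the J substrain. Substrain therefore cannot be told apart from genotype. The strain of the Dnmt TKO line is not given in the sources used here.

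Mouse chromosomes are telocentric or nearly so, which means that the centromere and one telomere lie together at the start of the numbered sequence and the other telomere lies at its far end. A telomere is a long array of the hexamer TTAGGG that is bound by the shelterin proteins and extended by telomerase, and the DNA next to it often carries degenerate copies of the repeat and segmental duplications. Embryonic stem cells have active telomerase, and the DNA methyltransferases and the TET dioxygenases, which add cytosine methylation and oxidise it, have both been linked to the upkeep of telomeres. The assembled genome holds almost nothing of the arrays themselves. In GRCm38, the mm10 assembly used for mapping, the last deposited bin of each chromosome is followed by a gap of unknown bases.

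The last 120 bases before that gap are shown for the chromosome 4 end because it alone of the 15 ends held no tandem copies of the repeat, while its last bin was still deep. They are the plus strand of GRCm38, read 5′ to 3′ and printed in lower case. Copies of TTAGGG would be in capitals, and this stretch held 0.
chromosome 4 (chr4:156357997-156358116): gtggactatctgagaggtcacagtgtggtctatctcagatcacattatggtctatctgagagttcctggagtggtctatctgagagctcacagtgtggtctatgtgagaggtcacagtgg

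Runs of at least 3 TTAGGG copies in tandem were searched on both strands. The ends held 85 such runs, 1.15 per Mb, against 326 runs and 0.188 per Mb in the rest of the same chromosomes. Of the member bins, 48 (3.24%) held at least 1 run, against 226 (0.651%) of the other bins. The last 1000 bases accounted for 26 of the 85 runs, all of them on the plus strand, and without those bases the ends still had 0.796 runs per Mb. Within the last 1000 bases, 14 ends had between 6 and 88 copies in such runs and the chromosome 4 end had none. The ends also had more GC than the rest of their chromosomes in 10 of 15 cases, with a median of 44.9% against 42.0%. GC content ranged from 37.5% on chromosome 17 to 49.9% on chromosome 4. They held 993 protein-coding genes of a GENCODE annotation, from 4 on chromosome 17 (0.800 per Mb) to 166 on chromosome 10 (33.2 per Mb). The median was 8.68 genes per Mb against 8.39 in the rest.

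The libraries held 555 to 812 Mb of mapped bases, and the median autosomal bin was covered to a mean depth of 0.215 to 0.315. The end with the fewest reads held 20402, so counting error on a 5 Mb end was at most 0.700%. The median bin of the X chromosome was at 0.561 to 0.592 of the autosomal median in all 11 libraries. The median bin of the Y chromosome was at 0.0269 to 0.0381 in the 4 pre-treatment and acute libraries, at 0.463 to 0.470 in long-term Ctrl, 0.549 to 0.558 in long-term Tet iTKO, and Dnmt TKO had 0.458. Line and stage therefore cannot be told apart between early and long-term libraries. The Ctrl and Tet iTKO lines were derived from separate embryos by the methods, and their long-term libraries also differed in Y depth. Differences between the genotypes below are thus also differences between lines, and the 2 cannot be told apart. Among the long-term Tet iTKO libraries, replicate 2 stood apart: its window counts differed from those of the other 2 with a chi-square of 2.31 and 2.34 per degree of freedom, against 1.08 to 1.54 for the other pairs of one genotype. No pair agreed within sampling noise, and all libraries were kept.

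Every bin of the ends held reads in every library. Depth is given from here on as relative depth, the depth of a bin over the median autosomal bin of its library, so that 1 stands for the typical autosomal bin of that library. In bulk DNA a change in a few cells cannot be told apart from a smaller one in all of them. Averaged over all 11 libraries, the member bins ranged from 0.624 to 7.12 around a median of 1.00, and 90% of them lay between 0.886 and 1.18. No member bin averaged below 0.5. The lowest, chr19:56479969-56529984 with Plekhs1 and the DNA repair nuclease gene Dclre1a, averaged 0.624 and lay between 0.553 and 0.735 in the single libraries. The other 4 of the 5 lowest bins averaged 0.796 to 0.815 and lay on chromosomes 4 and 19. Per library, the mean of all member bins was 1.03 in all 10 Ctrl and Tet iTKO libraries but 1.02 in Dnmt TKO, and the mean of the rest was 1.01 to 1.02.

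High bins were more common in the ends than elsewhere on the same chromosomes: 20 member bins (1.35%) averaged above 1.5, against 130 (0.374%) of the rest. Of these 20, 13 were the last bin of their chromosome. Another 3 were the next-to-last bins of chromosomes 2, 15 and 19, of which chr2:181913245-181963234 averaged 3.17 and lay between 2.63 and 3.45. The remaining 4 lay further in, on chromosomes 2, 9 (2 bins) and 13. The only last bins that averaged under 1.5 were those of chromosomes 9 and 17.

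Within the 5 Mb ends, depth rose towards the chromosome tip in all 11 libraries, and most of the rise fell in the outermost 0.5 Mb. Mean relative depth over the 15 ends was 1.26 there (1.22 to 1.28 in the single libraries), 1.08 between 0.5 and 1 Mb, 1.03 between 1 and 1.5 Mb and 1.02 between 1.5 and 2 Mb. In each step from 2 to 5 Mb it was 0.959 to 1.01. The median bin of the outermost step was at 1.11 and that of the next step, which holds the deepest bin of all ends (7.12), at 1.04. Just inside the inner limit, from 4.5 to 5 Mb, the mean was 0.992, and just outside it, from 5 to 5.5 Mb, 0.969. Means as high as that of the step from 0.5 to 1 Mb also occurred further in. The steps from 8.5 to 10 Mb averaged 1.07 to 1.10, with their median bins at 0.962 to 0.968. Bin by bin, the last bin averaged 2.23, the next 1.36, the third 1.15 and the fourth 1.25. Without the last bins the outermost 0.5 Mb averaged 1.14.

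**Figure D1:**
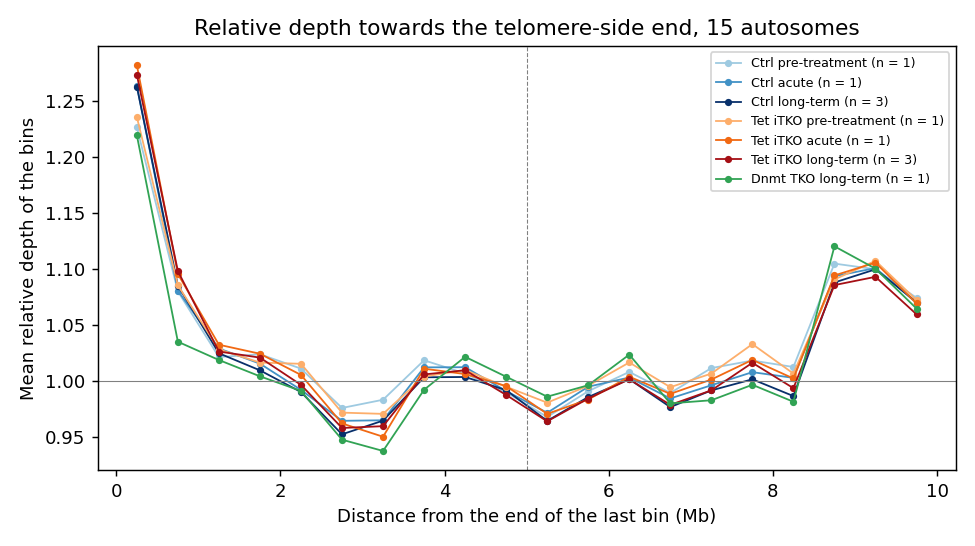
Mean relative depth (vertical axis, depth over the median autosomal bin) in steps of 0.5 Mb from the end of the last bin (horizontal axis, Mb), averaged over 15 autosomes, with 1 line per group (mean of its libraries, n in the legend) and a dashed line at 5 Mb, the inner limit of the ends. All groups reach 1.22 to 1.28 in the outermost step and lie near 1 from 2 to 5 Mb. From 8.5 to 10 Mb the mean over all libraries is again 1.07 to 1.10.

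With GC content taken into account, the ends lay only slightly above the rest of their chromosomes. GC-corrected log2 relative depth in 500 kb windows was used for this and for all tests below. The end minus the rest of its chromosome, averaged over the 15 ends, was 0.024 (SD 0.0021 over 11 libraries, range 0.020 to 0.027), which is 1.64% more depth. This small average depended on how an end was defined. It was 0.079 when only the outer 2.5 Mb were taken, -0.014 with 10 Mb and -0.0013 when the median window of each end stood for the end. By chromosome and on this corrected scale, 9 ends lay above the rest in all 11 libraries, with chromosomes 15 (0.067), 2 (0.060) and 17 (0.058) the highest. The ends of chromosomes 19 (-0.074), 16 (-0.024) and 4 (-0.023) lay below the rest in all 11. The ends of chromosomes 3, 5 and 13 were above the rest on average and below it in at least 1 library. Without GC correction 7 ends were above the rest in all libraries and 1 below, and 3 changed sign on average: chromosome 16 to 0.0093 (above the rest in 8 of 11 libraries), chromosome 18 to -0.014 (above in 4) and chromosome 13 to -0.0058 (above in 5). In plain relative depth of all bins, only the ends of chromosomes 2, 7, 10 and 15 lay above the rest in all 11 libraries. Those of chromosomes 4, 9 and 19 were above it in 0, with 1.03 against 1.09 on chromosome 9. The chromosome 17 end was above in 5 (1.025 against 1.031), and those of chromosomes 11 and 18 in 4.

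The relative depth of the last bin, averaged over all libraries, ran from 1.17 on chromosome 9 to 3.56 on chromosome 7. It followed the number of tandem repeat copies in the last 1000 bases: 88 copies on chromosome 7, 81 on chromosome 2 (2.78) and 75 on chromosome 18 (3.37) at the top, and 6 on chromosome 9, 11 on chromosome 15 (1.65) and 20 on chromosome 17 (1.41) at the bottom. Across the 14 ends with copies, Pearson's r was 0.910 and Spearman's rho 0.912, and with chromosome 4 included they were 0.880 and 0.839. These are descriptions over chromosomes that share the same libraries. Chromosome 10, with 52 copies, averaged 1.74 and lay below ends with fewer copies. Chromosome 4 went against the order, since it had no copies and a mean of 1.86. The repeat count was set beside the last bins after their depth had been seen.

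Averaged over the 14 last bins with copies, long-term Tet iTKO lay above long-term Ctrl, and Dnmt TKO was the highest of all libraries. Dnmt TKO was not the highest in each of these bins. The mean of these 14 bins was 2.00 in the pre-treatment Ctrl library, 2.22 in the acute one and 2.06, 2.26 and 2.21 in the long-term ones. In Tet iTKO it was 2.13 before treatment, 2.42 in the acute library and 2.35, 2.30 and 2.32 in the long-term ones. The Dnmt TKO library had 2.54. Counting error on such a mean was 0.0215 to 0.0281, so libraries of one genotype differed by more than that, and the pre-treatment library was the lowest of each genotype. Long-term Ctrl was at 2.18 ± 0.103 and long-term Tet iTKO at 2.32 ± 0.0260 (SD, n = 3), and all 3 Tet iTKO libraries lay above all 3 Ctrl libraries. The last bins of the 4 other autosomes, which were not members, stood at 2.34 in long-term Ctrl, 2.48 in long-term Tet iTKO, and those of Dnmt TKO at 2.82.

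Single last bins did not pass a test of the genotype difference. Long-term Tet iTKO was higher in 14 of 14 ends with copies, by 0.010 to 0.17 on the log2 scale with a median of 0.079, and lower by 0.012 on chromosome 4. The median over all single autosomal bins was -7.2e-05. In 5 of the 14, on chromosomes 2, 3, 7, 10 and 16, every Tet iTKO library lay above every Ctrl library, and 5.75% of all autosomal bins did so. On the chromosome 3 end, where the difference was largest, long-term Ctrl had 2.15, 2.43 and 2.38 and long-term Tet iTKO 2.52, 2.64 and 2.61. On the chromosome 7 end, the deepest, they were 3.15, 3.47 and 3.52 against 3.78, 3.61 and 3.62. In limma on single bins, with no filter on depth, 0 last bins passed at an adjusted p under 0.05 (smallest 0.790), where 60 of 47924 autosomal bins (0.125%) did. At an unadjusted p under 0.05 there were 3, on chromosomes 2, 3 and 10. The 14 bins share their libraries and are not replicates of one another. The response to GC content moved with the same libraries: its slope was -0.0015 to 0.025 log2 units per 10 points of GC in long-term Ctrl and 0.032 to 0.057 in long-term Tet iTKO. Dnmt TKO had 0.010. The part of this slope in the difference of the last bins was not tested.

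**Figure D2:**
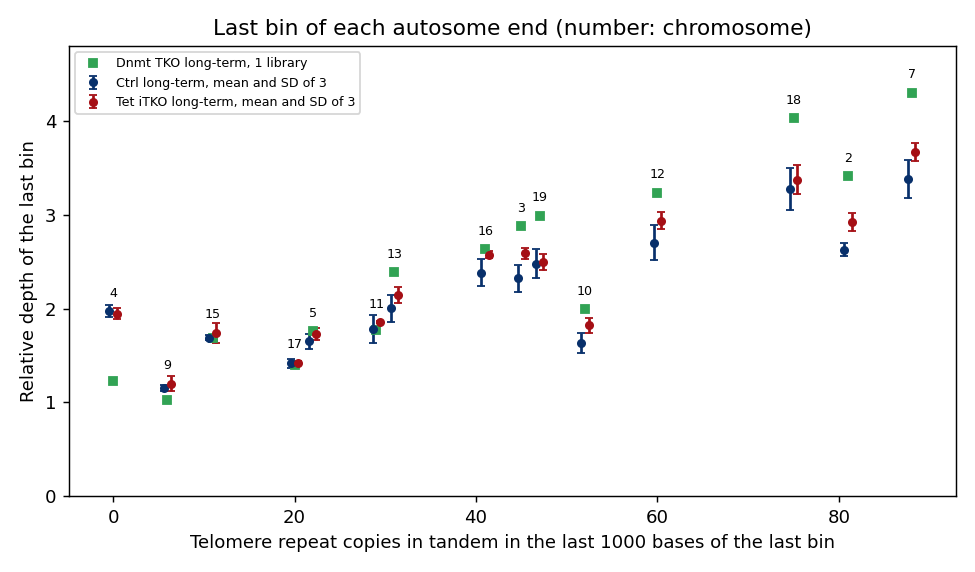
Relative depth of the last bin of each of 15 autosomes (vertical axis, starting at 0; chromosome numbers above the points) against the number of tandem TTAGGG copies in its last 1000 bases (horizontal axis) in the long-term libraries. Circles with bars are means and SD of 3 libraries for Ctrl (blue) and Tet iTKO (red), squares the Dnmt TKO library. Depth rises with the copies, from 1.15 on chromosome 9 to 3.38 on chromosome 7 in long-term Ctrl, and chromosome 4 stands apart with 0 copies.

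The Dnmt TKO library showed the steepest rise of depth with repeat copies. Per 10 copies, relative depth of the last bin rose by 0.234 ± 0.0243 in long-term Ctrl and by 0.263 ± 0.0185 in long-term Tet iTKO (SD, n = 3), and by 0.359 in Dnmt TKO. On chromosome 7 Dnmt TKO had 4.30, against 3.03 to 3.92 in the other 10 libraries. On chromosome 2 it had 3.41, against 2.29 to 2.99 in the others. At the chromosome 9 end, with 6 copies, it was the lowest library at 1.02, against 1.11 to 1.30. The end without copies also set it apart: on chromosome 4 the last bin was at 1.23 in Dnmt TKO, against 1.77 to 2.05 in the other 10 libraries. With 1 Dnmt TKO library these differences have no replicate check.

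**Figure D3:**
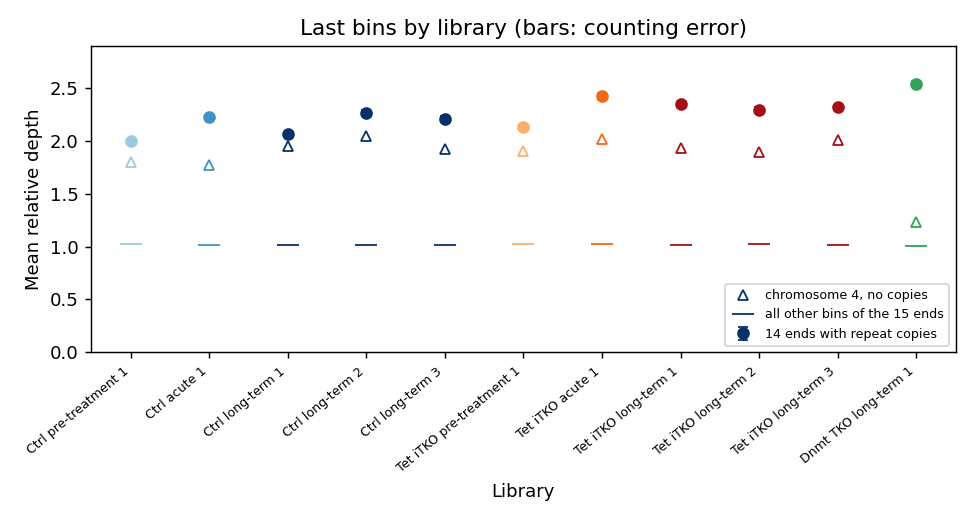
Mean relative depth (vertical axis, starting at 0) in each of 11 libraries (horizontal axis) of the 14 last bins with repeat copies (filled circles, bars for counting error, smaller than the symbols), of the last bin of chromosome 4 without copies (open triangles) and of all other bins of the 15 ends (dashes). The circles run from 2.00 to 2.54, the dashes stay at 1.00 to 1.02, and the Dnmt TKO library has the highest circle and the lowest triangle.

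Over the 500 kb windows of the ends kept by the filter on depth, no difference between the genotypes after long-term culture passed the test. Of 150 end windows, 149 were kept, and in limma 0 passed at an adjusted p under 0.05 (smallest 0.135). The window left out, on chromosome 13, passed when tested without the filter (limma, adjusted p = 1.77e-04) and is described further below. Over all 4783 autosomal windows 14 passed (0.293%). At an unadjusted p under 0.05 there were 16 of 149 (10.7%), against 556 of 4783 (11.6%) in all. The 3 libraries of one genotype lay apart from the 3 of the other in 19 end windows (12.8%), and 15.8% of all windows did the same. The median difference of the end windows was -0.0022 on the log2 scale, beside -0.0018 over all windows, with a typical SE of 0.024.

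Among the 149 windows kept, none of the 5 with the largest differences is a called change, and they are named only for their size. The first was chr17:92387805-92887697, a stretch with no protein-coding gene 2.50 Mb from the tip. Long-term Ctrl had -2.3e-04, 0.026 and 0.010 there and long-term Tet iTKO 0.11, 0.060 and 0.13 (GC-corrected log2 relative depth), so the groups did not overlap. The difference was 0.089 ± 0.024 (SE; limma, adjusted p = 0.135). It passed at an adjusted p of 0.041 with limma's trend and robust options and at 0.012 without Tet iTKO replicate 2, the library that stood apart. A neighbour, chr17:93387592-93887484, also without a protein-coding gene, was 0.076 ± 0.025 higher in Tet iTKO (limma, adjusted p = 0.254), again with no overlap. With the window on its inner side it passed in windows of 1 Mb (0.076, adjusted p = 0.048). The window with the largest negative difference, chr11:118032502-118532506, holds 10 genes, among them Timp2, an inhibitor of matrix metalloproteinases, and Lgals3bp. Long-term Ctrl had -0.016, -0.0093 and 0.059 and Tet iTKO -0.061, -0.059 and -0.11, a difference of -0.086 ± 0.025 (limma, adjusted p = 0.182). The others were chr2:179513726-180013625 with Cdh4 and Taf4 (-0.076 ± 0.026, adjusted p = 0.278) and chr12:116076196-116576553 with Vipr2 and Ncapg2 (0.076 ± 0.028, adjusted p = 0.297), and in both the groups overlapped.

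Taken as units of 5 Mb, the ends differed little between the long-term genotypes. In limma on 482 tiles of 5 Mb, 0 of 15 ends passed at an adjusted p under 0.05 (smallest 0.138), where 10 tiles did in all (2.07%), and 2 ends had an unadjusted p under 0.05 beside 94 of all tiles. The differences ran from -0.026 on chromosome 19 to 0.018 on chromosome 17, with SE of 0.0066 to 0.010 and a median of -4.5e-04 against -0.0024 over all tiles. When each long-term library was left out in turn, the value of chromosome 19 ran from -0.031 to -0.016 (without Ctrl replicate 2) and that of chromosome 17 from 0.0079 (without Tet iTKO replicate 1) to 0.027. The groups were apart in 4 ends and in 25.1% of all tiles. In these 4 the exact two-sided permutation test over libraries gave p = 0.1, the smallest that 3 against 3 libraries can give. On chromosome 19 long-term Ctrl had -0.051, -0.022 and -0.052 and Tet iTKO -0.059, -0.065 and -0.080 (adjusted p = 0.152). On chromosome 18 Ctrl had 0.042, 0.034 and 0.044 and Tet iTKO 0.020, 0.012 and 0.028 (difference -0.020, adjusted p = 0.138). This end passed without GC correction, at -0.034 with an adjusted p of 0.048. On chromosome 4 Ctrl lay between -0.022 and -0.0073 and Tet iTKO between -0.036 and -0.026, so all Tet iTKO libraries were lower. On chromosome 12 all were higher, at 0.020 to 0.030 against 0.013 to 0.017. The average of end minus rest over the 15 ends was 0.024 ± 4.7e-04 in long-term Ctrl and 0.025 ± 0.0025 in long-term Tet iTKO (SD, n = 3). The gap between these averages was 8.2e-04, but -2.6e-04 without Tet iTKO replicate 1 and 0.0022 without replicate 2.

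**Figure D4:**
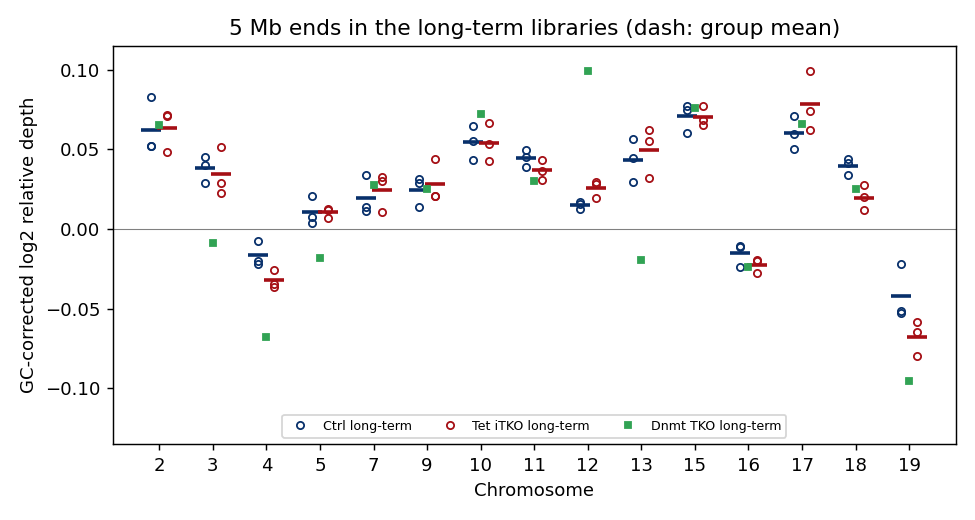
GC-corrected log2 relative depth (vertical axis) of the 15 ends of 5 Mb (horizontal axis, chromosome) in the 3 long-term Ctrl libraries (blue circles), the 3 long-term Tet iTKO libraries (red circles) and the Dnmt TKO library (green squares), with a dash at each group's mean. The genotype means differ by between -0.026 and 0.018, and Dnmt TKO lies outside both groups on chromosomes 3, 4, 5, 10, 11, 12, 13 and 19.

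Some sites in the ends stood out at a finer scale. In single bins with the filter on depth, 1 member bin passed between the long-term genotypes in limma, where 50 of 47708 bins did in all (0.105%). It was chr15:103714544-103760371, with the mucin-like gene Mucl1, 0.183 Mb from the tip, and it was singled out after its values were seen. Its relative depth was 1.31, 1.23 and 1.15 in long-term Ctrl and 1.48, 1.69 and 1.67 in long-term Tet iTKO, a log2 difference of 0.40 ± 0.076 (SE, adjusted p = 0.0043). The early Tet iTKO libraries had 1.15 and 1.21, the early Ctrl libraries 1.28 and 1.20, and Dnmt TKO 1.23. Only the 3 long-term Tet iTKO libraries were high, and the gap between long-term and early Tet iTKO passed too (0.43 ± 0.084, adjusted p = 0.012).

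The other site was the deepest bin of all ends, chr13:119595506-119643913, 0.678 Mb from the tip, with Tmem267 and the chemokine gene Ccl28. Its relative depth was 6.99 and 7.06 in the early and 6.65, 6.88 and 6.98 in the long-term Ctrl libraries. It was 8.03 and 8.28 in the early and 8.24, 8.07 and 8.49 in the long-term Tet iTKO libraries, and 2.66 in Dnmt TKO. All 5 Tet iTKO libraries lay above all 5 Ctrl libraries, also those taken before tamoxifen. Between the long-term groups the log2 difference was 0.27 ± 0.072, which did not pass in single bins without the filter (limma, adjusted p = 0.270). The bin chr13:119445550-119495505, over Paip1 and Tmem267, had 1.36 to 1.41 in long-term Ctrl, 1.54 to 1.74 in long-term Tet iTKO, and Dnmt TKO had 1.00. There the early Ctrl libraries had 1.491 and 1.545 and the early Tet iTKO libraries 1.544 and 1.694, so with the early libraries the genotypes overlapped. The 500 kb window with both bins, chr13:119345639-119837549, had a mean relative depth of 1.91 and was the 1 end window left out by the filter at 1.5. Tested without that filter, it differed by 0.17 ± 0.024 between the long-term groups (limma, adjusted p = 1.77e-04).

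Between early and long-term libraries, no end window passed the test in either genotype. In limma, 0 end windows passed in Ctrl (7 of 4783 in all, 0.146%), 0 in Tet iTKO (5 in all, 0.105%) and 0 for the interaction of genotype and stage (12 in all, 0.251%). At an unadjusted p under 0.05 there were 8 end windows in Ctrl (5.37%, and 5.37% of all windows), 6 in Tet iTKO (4.03% against 5.96%) and 11 for the interaction (7.38% against 5.50%). Of the whole ends, 0 passed in Ctrl (0.83% of all tiles), 0 in Tet iTKO (0.207%) and 0 for the interaction (0.83%), with the smallest adjusted p at 0.539 for stage and 0.847 for the interaction. The largest value, in Tet iTKO and for the interaction, was the outermost window of chromosome 15, chr15:103464599-103943685, which holds the Mucl1 bin, the milk and lymph node mucin gene Glycam1 and the leukocyte gene Nckap1l. It had 0.28 and 0.21 in the early Tet iTKO libraries and 0.36, 0.38 and 0.36 in the long-term ones. In Ctrl it had 0.33 and 0.32 early and 0.33, 0.31 and 0.27 long-term. The long-term minus early difference was 0.13 ± 0.027 in Tet iTKO (limma, adjusted p = 0.057) and the interaction 0.15 ± 0.038 (adjusted p = 0.134). Both passed with limma's trend and robust options (adjusted p = 0.011 and 0.045). The next 4 windows by size in Tet iTKO were chr2:181513325-182013224 with the transcription factor genes Sox18 and Myt1, chr2:178014027-178513926 with the meiotic gene Sycp2, chr17:92387805-92887697 and chr12:118077627-118577984 with the dynein gene Dnah11, at 0.065 to 0.087 with adjusted p of 0.799 or more. For the interaction they were chr2:180013626-180513525 with the laminin gene Lama5 (0.10), the same chromosome 17 window (0.099), chr13:115349209-115848762 (-0.093) and chr3:158440933-158940514 with Lrrc7 (-0.089), with adjusted p of 0.747 or more. In Ctrl the 5 largest stage differences lay between -0.072 and 0.085. They were in 3 windows of the chromosome 18 end, the outermost window of chromosome 4 and a chromosome 12 window with Ptprn2 and Rapgef5, with adjusted p of 0.464 or more.

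Between the pre-treatment and acute libraries no end window reached the size looked for. With 1 library each there was no test, and windows were counted where the log2 difference was 0.15 or more. Between acute and pre-treatment libraries 0 end windows did so in Ctrl (0.0836% of all windows) and 0 in Tet iTKO (0.314%). Between the genotypes 0 did so before treatment (0.209%) and 0 in the acute libraries (0.502%). Whole ends moved by -0.031 to 0.021 in Ctrl and by -0.022 to 0.029 in Tet iTKO from the pre-treatment to the acute library, and none reached 0.05 (0.415% and 1.66% of all tiles).

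Depth was also read at lists of landmark genes. The 13 imprinted genes listed for distal chromosome 7, among them H19, Igf2, Cdkn1c and Kcnq1, all lay in the end of that chromosome, and their 18 bins averaged 0.982 to 1.02 in the 10 libraries of Ctrl and Tet iTKO, with 0.983 in Dnmt TKO. Nearer the tip, the 3 bins of the cyclin gene Ccnd1 and of Fgf3, Fgf4 and Fgf15 averaged 0.926 to 1.03, and 1.01 in Dnmt TKO. Of 10 genes listed for shelterin and telomerase with their helper factors, only Rtel1, a helicase that unwinds telomeric loops, lay in an end, on chromosome 2. Its bin was at 1.00 to 1.21 in Ctrl and Tet iTKO cells, and Dnmt TKO had 1.03. Of 183 annotated immunoglobulin heavy chain variable (Ighv) segments, from which developing B cells assemble antibody genes, 51 lay at the inner edge of the chromosome 12 end. Their 19 bins averaged 0.917 to 0.999 in these 10 libraries, with 1.43 in Dnmt TKO. Between the long-term genotypes the widest difference of these groups was -0.10 on the log2 scale, at the single Rtel1 bin.

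The Dnmt TKO library departed from long-term Ctrl at the Ighv segments and at several chromosome tips. Such windows were not more common in the ends than over all windows. With 1 library there was no test. In 8 of 149 end windows the log2 difference from the mean of the 3 long-term Ctrl libraries was 0.15 or more, 2 of them higher and 6 lower. Among all 4783 windows 370 did so (7.74%), with 4.91% higher and 2.82% lower, and outside chromosome 8 the share was 4.5%. The share in the ends was thus below that of all windows and slightly above that outside chromosome 8. Higher windows were rarer in the ends than over all windows, and lower ones were more common. The shares by direction over all windows include chromosome 8, which lies outside the rule, and were not computed without it. Whether the ends differ by direction from windows outside chromosome 8 is therefore not shown. The 2 higher ones were neighbours, chr12:115575838-116076195 with 26 Ighv segments (0.62) and chr12:115075480-115575837 with 25 (0.39). Within them the single bins went from 0.534 to 3.21 in Dnmt TKO, while each of these bins lay between 0.761 and 1.15 in the other 10 libraries. The highest was chr12:115575838-115625873 with 4 Ighv segments at 3.21, against 0.793 to 1.04. The next was chr12:115775981-115826016 with 3 segments at 2.98, against 0.896 to 1.15. In 4 of these bins Dnmt TKO was below all other libraries, at 0.534 to 0.692.

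**Figure D5:**
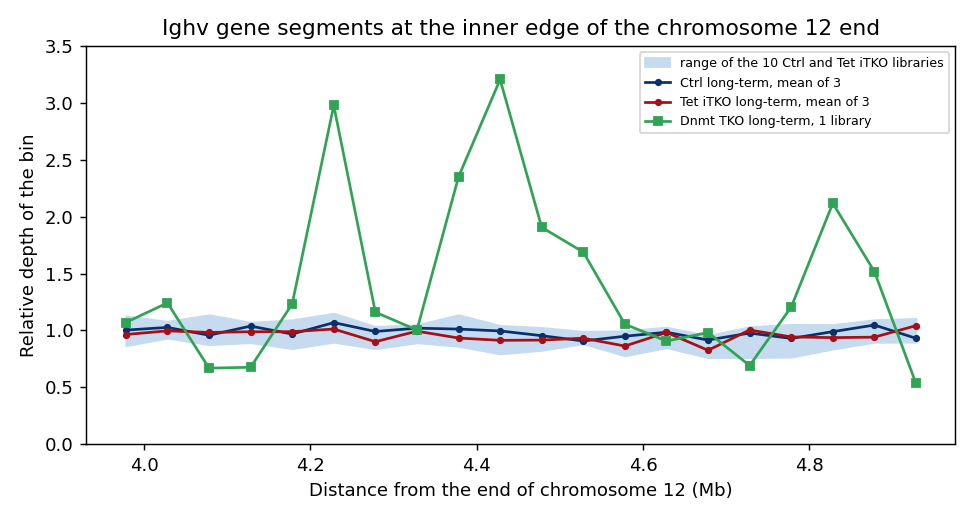
Relative depth (vertical axis, starting at 0) of the single bins with Ighv gene segments at the inner edge of the chromosome 12 end, by distance from the end of the last bin (horizontal axis, Mb). The band spans the 10 Ctrl and Tet iTKO libraries, the lines with circles are the means of 3 long-term libraries and the green squares are the Dnmt TKO library. The band stays near 1, while Dnmt TKO has separate peaks of up to 3.21 and bins down to 0.534.

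The 6 lower windows were mostly at the tips. The outermost window of chromosome 9, chr9:124018438-124495110, with the chemokine receptor genes Ccr3 and Ccr2, was lower by 0.43 in Dnmt TKO. Its deepest bin, chr9:124248837-124304982 within 2010315B03Rik, was at 1.57 in Dnmt TKO and at 3.03 to 3.39 in the other 10 libraries. Not far inside, the Ccr1 bin, chr9:123923111-123970773, went the other way, with 2.84 in Dnmt TKO and 1.23 to 1.57 in the others, and it was singled out after its values were seen. The outermost windows of chromosomes 4 (-0.21), 5 (-0.16) and 13 (-0.16) were lower too. The chromosome 13 window holds Tcstv1 and Tcstv3, genes active in rare cleavage-like stem cells. Its first bin, chr13:119837550-119885958, was at 0.462 in Dnmt TKO against 0.960 to 1.21, while chr13:119982777-120031185 was at 1.80 against 0.904 to 1.18. The last 2 lower windows were on chromosome 19, one with the translation factor gene Eif3a and the germ cell gene Nanos1 (-0.18) and one with Ablim1 and Vwa2 (-0.17).

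As whole ends, 1 was higher in Dnmt TKO by at least 0.05 (chromosome 12, 0.084) and 3 were lower (chromosome 13, -0.063; chromosome 19, -0.053; chromosome 4, -0.051), and 18.9% of all tiles of 5 Mb, or 15.8% outside chromosome 8, were that far from Ctrl in either direction. The chromosome 12 value includes both Ighv windows, and the other 8 windows of that end averaged -0.021 and lay between -0.066 and 0.036. The remaining 11 ends lay within 0.05 of long-term Ctrl, and the median over the 15 was -0.0085.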

How the data were processed

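Low-coverage whole-genome sequencing (PCR-free libraries, 11 in 7 groups) was analysed. The authors trimmed reads, mapped them to mm10 with BWA-mem and removed duplicates with Picard. The deposited files give the mean coverage (depth, a signal not scaled to the library or corrected for GC) of bins of about 50 kb, and a log2 column that the authors' files hold for the same bins and that equalled the log2 of depth within 4.05e-05. Reads were estimated as bases over 50, since 95.1% of 3200 low base sums were multiples of 50, although the methods name a longer minimum read length. PCR-free reads still leave intervals that cover counting error only.

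Relative depth is depth over the library's median autosomal bin. Windows of 500 kb and tiles of 5 Mb were counted from the last bin. Windows with mean relative depth outside 0.5 to 1.5 were left out, and log2 values were corrected for GC by lowess (span 0.3, 3 iterations, statsmodels 0.14.6). limma 3.58.1 in R 4.3.3 (lmFit, eBayes, two-sided, Benjamini-Hochberg over all autosomal windows or tiles) tested long-term Tet iTKO against Ctrl (6 libraries) and stage and interaction (10 libraries). Early means the pre-treatment and acute library of a genotype. For Tet iTKO this group joins a library with the floxed Tet genes not yet removed and a library after tamoxifen. Tet deletion status is thus mixed in the stage and interaction contrasts. Groups of 1 library were compared by size (0.15 for windows, 0.05 for tiles). Replicates are clones or libraries as the labels give them, and p-values measure the spread between these. On simulated counts for the long-term comparison, 100% of 100 windows changed by 0.15 and of 100 changed by 0.3 were recovered, with 4 of 4582 unchanged windows called. The simulated replicates differed by counting noise only, which is less than the spread between the real libraries. This recovery therefore does not give the power of the tests on the data.

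All 15 ends were named, with the 5 windows of largest size per contrast where fewer than 5 passed (for Dnmt TKO, all 8 past the size limit), the 5 highest and lowest bins and listed landmark genes. The members, lists and thresholds were chosen with earlier results of these data known. The end sequences other than that of chromosome 4 and 1 list of landmark genes are not reported here. The reference was GRCm38 (RefSeq sequence, GENCODE genes). Alternatives covered GC correction, filter, window and end length, scaling, fit, replicate block, median for mean and leaving out each long-term library. Values and plots were made in Python 3.11.15 with pandas 2.3.3, numpy 2.4.6, matplotlib 3.10.9 and scipy 1.17.1.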

Additional observations from a re-analysis of the deposited data

How the results depend on the processing

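The count of end windows past the threshold between long-term Tet iTKO and Ctrl was 0, where 14 of 4783 windows passed in all. It was 1 with limma's trend and robust options (34 of 4783), 1 without the filter on relative depth (17 of 4807), 2 in windows of 1 Mb (23 of 2392), 1 in single bins with the filter (50 of 47708) and 1 without it (60 of 47924), and 0 to 1 when each library was left out (8 to 35 of 4783, with 1 and 35 without Tet iTKO replicate 2). For long-term against early Tet iTKO it was 0 (5 of 4783 in all), and 1 with trend and robust options (9 of 4783), in single bins (19 of 47708) and in single bins without the filter (20 of 47924). For the interaction it was 0 (12 of 4783), and 1 with trend and robust options (21 of 4783). The count of ends past the threshold was 0 (10 of 482 tiles), and 1 without GC correction (20 of 482). It stayed at 0 with the trend and robust options and without each library, where all tiles gave 28 and 3 to 34 (34 without Tet iTKO replicate 2). The count of Dnmt TKO windows past the size limit was 8, and 2 in windows of 1 Mb.

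With the replicate number as a block, 0 end windows and 0 ends passed, and 12 windows and 6 tiles in all. Same-numbered libraries did not deviate together (correlations 0.026, 0.0034 and -0.0062), so the numbers were not taken as pairs.

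End minus rest over all libraries was 0.024, and 0.020 without GC correction, 0.029 in windows of 1 Mb, 0.079 for ends of 2.5 Mb, -0.014 for 10 Mb and -0.0013 with the median window. Its difference between the long-term genotypes was 8.2e-04, and 0.0046 without GC correction, 0.0021 in windows of 1 Mb, 0.0056 for 2.5 Mb, -0.0033 for 10 Mb and -2.6e-04 to 0.0022 when each library was left out.

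Of 225 recomputed differences of single ends, 184 kept their direction and side of the threshold, 40 changed sign at sizes of 0.011 or less and 1, chromosome 18 without GC correction (-0.034), newly passed. Those of chromosomes 17, 18 and 19 changed sign in no setting. Without GC correction the differences turned to 0.0012 on chromosome 4, 0.0078 on 5, 0.0018 on 10, 0.0085 on 11, -0.0037 on 13, 0.011 on 15 and 0.0019 on 16. With ends of 2.5 Mb they turned to -0.0029 on chromosome 2, -0.0021 on 9, 0.0019 on 10 and 0.0047 on 15. With 10 Mb they turned to -0.0012 on 2, 0.0028 on 5, -0.010 on 7, -0.0087 on 9 and -3.7e-05 on 12. With the median window they turned to 0.0013 on 5, 0.0047 on 15 and 0.0038 on 16, without the filter to 3.0e-05 on 5, and with total scaling to 0.0016 on 5, 0.0013 on 10 and 0.0011 on 15. When each long-term library was left out in turn, the difference ran from -0.0038 to 0.012 on chromosome 2, -0.012 to 0.0021 on 3, -0.0036 to 0.0050 on 5, -0.0038 to 0.0077 on 9, -0.0066 to 0.0053 on 10, -7.0e-04 to 0.015 on 13, -0.0059 to 0.0027 on 15, 0.0079 to 0.027 on 17 and -0.031 to -0.016 on 19. The cause of these changes was not tested.

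A depth of 0.215 to 0.315 limits what single bins can show: the median bin held 215 to 315 reads. Differences of whole ends had SE of 0.0066 to 0.010. Groups of 1 library give no test.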
